A study of Mus musculus with 2 samples.

Results

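The regions described here are 298 stretches of the mouse genome in which trimethylated lysine 36 of histone H3 (H3K36me3) gave fewer reads in Dicer knockout (KO) cells than in Dicer wild-type (WT) cells. They were formed from the deposited list of H3K36me3 events with more reads in WT. Events at most 5 kb apart were joined, regions of 3 or more events were kept, and chromosomes 9 and X were left out. The 298 domains hold 1335 of the 3341 events of that list (39.96%), out of 21418 events in the 6 lists of the series. Of the 3341 events, 2587 lie off chromosomes 9 and X. Because the list itself holds only events higher in WT, a lower value in KO is how the members were chosen, and it is given below as a description without a test.

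The study compared mesenchymal stromal cells lacking Dicer, an enzyme needed to make mature microRNAs, with Dicer WT cells by chromatin immunoprecipitation and sequencing (ChIP-seq). The KO cells and the WT cells were both immortalized and monoclonal, so each genotype may stand for 1 clone and a difference between clones cannot be told apart from one between genotypes. The sample titles call the same cells fibroblasts. The labels give 1 sample per genotype, for acetylated lysine 27 of H3 (H3K27ac), and no sample of their own for H3K36me3 or H3K4me3. No age, strain or driver of the deletion is given in the labels used here. All lists give 1 value per genotype and mark, so there is no replicate error and no test between genotypes. Whether the cell type's defining markers are marked was not checked, since genes could not be placed by an annotation of the build used (mm9).

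H3K36me3 is laid down along gene bodies behind elongating RNA polymerase II, mainly by the methyltransferase Setd2. It is usually weak near the start of a gene and strong towards its end. H3K4me3 marks promoters, and H3K27ac marks active promoters and enhancers. A run of H3K36me3 events with H3K4me3 beside one end therefore has the layout of a transcribed gene. Mesenchymal stromal cells can give rise to bone, fat and smooth-muscle-like cells.

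Gene names in these results come from recalled mm9 positions of well-known genes, not from an annotation file. They were kept or dropped by comparison with gene positions of another build (GRCm38.p6), with the values in view, and each name is therefore provisional. Names were given to 80 of the 298 domains (39 genes and the HoxC cluster). The other 218 have no name. Only a few of them are described below, by position, so the text leans towards domains with a recognised gene. Among the 57 domains picked by fixed rules of size (the longest, those with most events or reads, the lowest and highest ratios, those with the strongest other marks and those with a mark higher in KO), 29 have a name. The remaining named domains were chosen after their values were seen. The groups of genes below were also made from the names recognised, so their counts show no theme and no enrichment. A gene's ratio sums only the listed events of its domains, all higher in WT, and says nothing of the rest of the gene. The domain of Col1a1 covered 984 bp of a gene of 16819 bp, and those of Pparg 3380 bp of 129526 bp (gene lengths in GRCm38.p6).

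The promoters of 5 of the genes named below are shown because H3K4me3 higher in WT lay at one end of a domain of each. Each run is the 250 bases before the RefSeq transcription start in build GRCm38.p6, read along the gene's own strand. Capitals mark the motif TATAAA in Tnc and a CArG box, the site bound by serum response factor, in Myl9. The 5 genes and the 2 motifs were picked after the values had been seen. Positions of these promoters are in GRCm38.p6 and those of all domains in mm9, so the 2 sets of positions must not be set against each other.
Alpl, chr4:137796385-137796634, minus strand: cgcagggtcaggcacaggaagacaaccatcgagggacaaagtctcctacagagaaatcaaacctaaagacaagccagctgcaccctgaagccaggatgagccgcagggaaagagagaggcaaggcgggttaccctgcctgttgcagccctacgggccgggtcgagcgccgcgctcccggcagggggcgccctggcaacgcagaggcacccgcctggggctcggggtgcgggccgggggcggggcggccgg
Tnc, chr4:64047016-64047265, minus strand: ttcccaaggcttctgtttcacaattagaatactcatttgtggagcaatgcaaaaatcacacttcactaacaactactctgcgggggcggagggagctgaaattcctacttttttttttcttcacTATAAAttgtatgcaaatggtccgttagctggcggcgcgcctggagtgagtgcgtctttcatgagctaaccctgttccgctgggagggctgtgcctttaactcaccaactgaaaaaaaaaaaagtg
Acta2, chr19:34255374-34255623, minus strand: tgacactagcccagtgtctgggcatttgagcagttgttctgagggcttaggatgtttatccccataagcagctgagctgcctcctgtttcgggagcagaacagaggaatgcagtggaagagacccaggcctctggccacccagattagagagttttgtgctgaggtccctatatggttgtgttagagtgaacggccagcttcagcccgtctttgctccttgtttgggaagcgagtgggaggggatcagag
Tpm2, chr4:43523555-43523804, minus strand: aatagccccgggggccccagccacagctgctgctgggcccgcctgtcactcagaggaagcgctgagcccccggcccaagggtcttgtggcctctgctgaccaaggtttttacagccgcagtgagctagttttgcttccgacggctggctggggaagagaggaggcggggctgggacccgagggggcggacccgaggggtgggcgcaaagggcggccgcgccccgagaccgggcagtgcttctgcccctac
Myl9, chr2:156775214-156775463, plus strand: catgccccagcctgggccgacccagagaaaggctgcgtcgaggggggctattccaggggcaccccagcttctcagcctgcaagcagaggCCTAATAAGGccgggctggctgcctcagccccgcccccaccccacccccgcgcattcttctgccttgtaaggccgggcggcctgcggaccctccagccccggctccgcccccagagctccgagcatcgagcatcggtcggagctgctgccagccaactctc
Both strands were searched, and the 2 motifs did not overlap in these windows. The CArG box counted here was CC, 6 letters of A or T, and GG. Runs 1 letter away from it, such as ccctatatgg and ccttgtttgg in Acta2, were not counted. A promoter without a match can therefore still hold a looser form of the site. TATAAA occurred in 12.4% and a CArG box in 1.47% of 32851 RefSeq promoters of the same length. Of the 21 named genes with a promoter in the RefSeq table, 4 held TATAAA and 1 a CArG box. The promoters of those 21 genes had a median of 16 CpG, between 4 in Acta2 and 43 in Hipk2, and all promoters had a median of 6. Alpl had 20 CpG, Tpm2 17, Myl9 16 and Tnc 8. A match or its absence describes these letters only.

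Over all members, KO had 31687.7 scaled H3K36me3 reads and WT had 126642, a KO over WT ratio of 0.2502. Its 95% interval is 0.246 to 0.254 and, like every interval here, covers counting error only. KO reads had been multiplied by 1.697 in the deposited list to match WT. Whether every KO cell carried less of the mark or fewer cells carried it cannot be told apart in such bulk samples. A member had a median of 18.7 scaled reads in KO (range 0 to 245) and 81.3 reads in WT (31 to 495). A ratio at or under 0.25 was found in 713 of 1335 members (53.4%), and the same ratio was found in 28.8% of the 5050 H3K36me3 events of both directions. A ratio at or under 0.1 was found in 193 members (14.5%) and in 8.02% of the 5050 events. The 5050 include events higher in KO, which cannot have such ratios. Among the 3341 events higher in WT, members included, the shares were 43.5% and 12.1%. Since the list was chosen for lower values in KO, nothing is read from these shares.

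Per domain, the median was 83.9 scaled reads in KO (quartiles 44.9 and 136.6) and 334 reads in WT (quartiles 205.75 and 517.75). The median ratio was 0.262 (quartiles 0.173 and 0.325), and the domains ran from 0.0346 to 0.465. The highest, 0.465 (0.376 to 0.573), lay from 188447427 to 188449398 on chromosome 1 and has no gene name. Among the lowest, an unnamed domain from 157083765 to 157089095 on chromosome 1 had 5.1 scaled reads in KO and 145 reads in WT. Its ratio was 0.0352 (0.00716 to 0.105). The upper limit of the interval was under 0.5 in 277 domains and under 0.25 in 76. These limits come from the reads by which the events were chosen, so nothing is read from the counts.

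**Figure D1:**
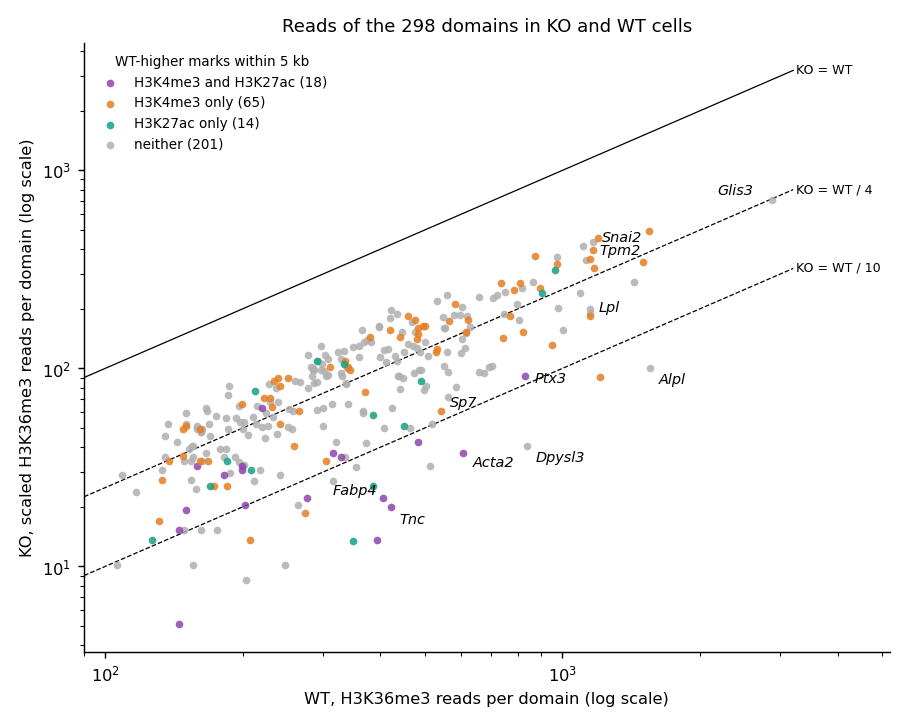
H3K36me3 reads of each of the 298 domains, with scaled KO reads on the vertical axis and WT reads on the horizontal axis, both on log scales. Lines mark equal reads, a ratio of 1 to 4 and a ratio of 1 to 10, colours show the other marks higher in WT within 5 kb, and for a gene with several domains the label stands at 1 of them. All domains lie below the line of equal reads by the choice of the list, and those of Dpysl3, Tnc, Fabp4, Acta2 and Alpl lie below the line of 1 to 10.

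The domains were short in comparison with many mammalian genes. The median span was 2949 bp (quartiles 1362 and 5031), from 618 to 17476 bp, and 20 domains were longer than 10 kb. Of the 298 domains, 148 held 3 events, 56 held 4, 82 held 5 to 9, and 12 held 10 or more. Neighbouring members lay a median of 610 bp apart. At the edge of the rule, the largest gap inside a region was 4997 bp and the smallest gap between regions was 5017 bp. Domains of 3 events had a median ratio of 0.271, and the 238 regions of 2 events just outside the rule had 0.296. The 776 single events had a median ratio of 0.311. A further 68 regions on chromosome 9 and 13 on chromosome X met the event number but were left out by the rule.

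The longest domain lay in Dysf, which codes for dysferlin, a protein of membrane repair. It ran from 83977078 to 83994553 on chromosome 6, spanned 17476 bp and held 10 events, with 103.2 scaled reads in KO and 702.8 reads in WT. The domain with most events, 19 over 17235 bp, lay in Glis3 on chromosome 19, and the second Alpl domain on chromosome 4 spanned 17002 bp with 14 events. Of the other 7 among the 10 longest, 1 more lay in Dysf, and 6 were given no gene name. One of those 6, from 32713044 to 32729335 on chromosome 15, had 14 events with 343.1 scaled reads in KO and 1498.4 reads in WT, a ratio of 0.229 (0.197 to 0.265).

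Many domains lay near another one. Of the 298, 163 had another domain within 100 kb, and by this distance alone they formed 55 chains of 2 or more domains. A chain can cross from 1 gene to the next, and most chains carry no gene name. The median ratio was 0.245 in the 163 and 0.284 in the other 135. Glis3, a zinc-finger transcription factor, held the longest chain: 10 domains with 62 events reached over 346549 bp and covered 58097 bp of it. The chain had 2035.8 scaled reads in KO and 8466.8 reads in WT. Its ratio was 0.240 (0.226 to 0.256), and its domains ran from 0.133 to 0.321. Dysf held 7 domains with 49 events over 188091 bp, with 558.3 scaled reads in KO and 3757 reads in WT, and their ratios lay between 0.114 and 0.166. Within Dysf the intervals of the lowest (0.0754 to 0.164) and the highest (0.135 to 0.201) overlap.

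Hipk2, a nuclear protein kinase, held 6 domains with 30 events over 127121 bp, with 364.9 scaled reads in KO and 2657.1 reads in WT. The ratio was 0.137 (0.119 to 0.158). Antxr1, a cell-surface receptor that binds collagen and anthrax toxin, held 5 domains with 565.1 scaled reads in KO and 2031.6 reads in WT, a ratio of 0.278 (0.247 to 0.312). Pappa, a secreted protease that cleaves insulin-like growth factor binding proteins, held 4 domains over 160050 bp with a ratio of 0.159 (0.136 to 0.185). Nrp1, a co-receptor for semaphorins and vascular endothelial growth factor, held 3 with a ratio of 0.306 (0.265 to 0.351). Ebf1, a transcription factor of B cells and of fat precursors, held 3 with 0.271 (0.223 to 0.328). A chain of 5 domains on chromosome 2, from 54272952 to 54433067, was given no name and had 109.9 scaled reads in KO and 1080.2 reads in WT, a ratio of 0.102 (0.0783 to 0.131).

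**Figure D2:**
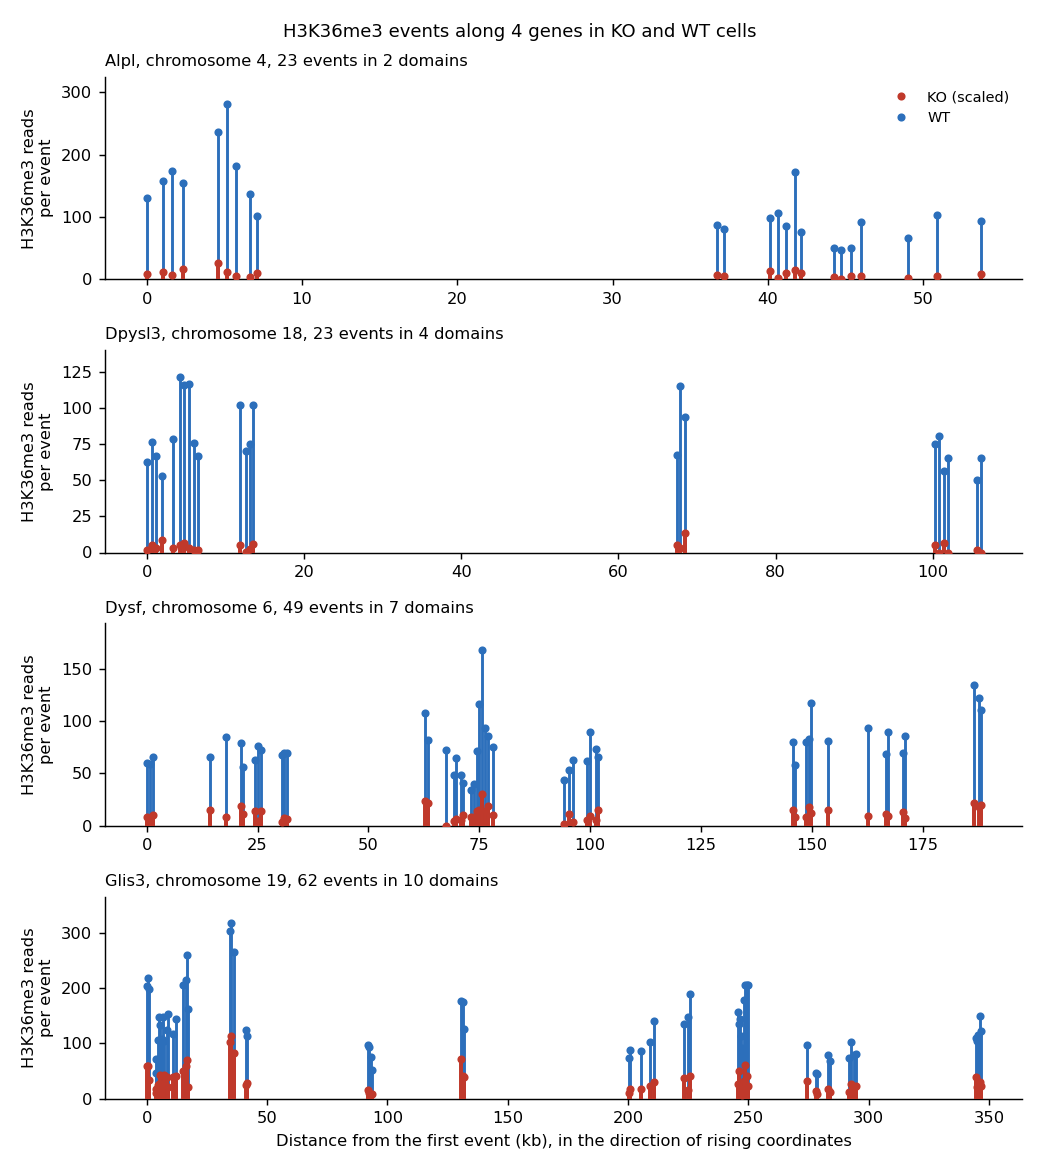
H3K36me3 reads of every member event along 4 genes, with scaled KO reads in red and WT reads in blue, against the distance in kb from the first event. Within each gene every KO value lies below the WT value of the same event, which the choice of the list fixes. In Alpl and Dpysl3 no KO value reaches the lowest WT value of the gene, whereas in Glis3 the highest KO value, 113.7, stands above many WT values of other events.

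Among genes of bone, both domains of Alpl were in the 10 domains with most WT reads and had the lowest ratios of those 10. Alpl codes for the alkaline phosphatase that supports mineralization. Its first domain, from 137297154 to 137304254 on chromosome 4, had between 3.9 and 25.5 scaled reads per event in KO, against 101.8 to 282 reads per event in WT. Its second domain had 0 to 14.4 in KO, against 47 to 172.7 in WT. Each of its 23 events was lower in KO by the choice of the list. The ranges of KO and WT reads over these events do not overlap. Here and below, neighbouring events are not replicates of a genotype, so such ranges describe the events only. Summed, Alpl had 191.1 scaled reads in KO and 2765.5 reads in WT, a ratio of 0.0691 (0.0569 to 0.0837). H3K4me3 beside the second domain had 99 scaled reads in KO and 2097 in WT, a ratio of 0.0472 (0.0408 to 0.0544).

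Sp7, the osteoblast transcription factor osterix, had 8 events from 102188319 to 102195752 on chromosome 15. They had 1.7 to 11.9 scaled reads in KO, against 50.9 to 96 reads in WT, without overlap. The summed ratio was 0.113 (0.0780 to 0.158), and that of its H3K4me3 was 0.0315 (0.0268 to 0.0368). Dlx5 and Dlx6, neighbouring homeobox genes of skeletal development, had higher ratios. Dlx6 had 142.6 scaled reads in KO and 741.1 reads in WT, a ratio of 0.192 (0.152 to 0.241). Dlx5 had 124.9 scaled reads in KO and 532.3 reads in WT, a ratio of 0.235 (0.183 to 0.301). Msx1, a homeobox gene of craniofacial development, had a ratio of 0.147 (0.0806 to 0.2495). All 5 had H3K4me3 higher in WT within 5 kb of a domain, and none had H3K27ac higher in WT there. Over the 43 events of these 5 genes, KO had 545.3 scaled reads and WT 4754.9.

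Acta2, smooth muscle actin, had 6 events from 34325244 to 34328225 on chromosome 19. KO had 8.5, 0, 1.7, 11.9, 6.8 and 8.5 scaled reads in order of position, against 111.1, 139.9, 125, 90, 79 and 63 reads in WT. The ranges of KO and WT reads over these events do not overlap. The ratio of the sums was 0.0615 (0.0382 to 0.0938). At the event with 0 KO reads, the upper limit of the ratio's interval was 0.0453.

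Tpm2, a tropomyosin of muscle and stress fibres, had 10 events with 357 scaled reads in KO and 1150.3 reads in WT, a ratio of 0.310 (0.266 to 0.359). Its events had 1.7 to 68.2 scaled reads in KO, against 41 to 219.3 reads in WT, so the ranges overlap. Myl9, a regulatory light chain of myosin, had 8.5, 1.7 and 5.1 scaled reads in KO, against 53, 41 and 51 reads in WT, and a ratio of 0.106 (0.0472 to 0.206). The wide interval of Myl9 comes from its low read numbers. All 3 genes of the contractile apparatus had H3K4me3 higher in WT beside the domain, with ratios of 0.0824 in Acta2, 0.0599 in Myl9 and 0.280 in Tpm2.

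The 4 genes of fat cells ranged from 0.0544 to 0.390. Fabp4, the fatty acid carrier of adipocytes, had 0, 6.8, 5.1 and 10.2 scaled reads in KO, against 63, 96.1, 132.9 and 114 reads in WT, a ratio of 0.0544 (0.0287 to 0.0940). Related fatty acid carriers lie near Fabp4, and the naming cannot tell apart reads of such neighbours. Lpl, the lipase that frees fatty acids from lipoproteins, had 17 events in 2 domains with 426.6 scaled reads in KO and 2239.5 reads in WT, a ratio of 0.190 (0.166 to 0.217). Cebpa, a transcription factor of fat cell differentiation, had 61 scaled reads in KO and 266 reads in WT, a ratio of 0.229 (0.157 to 0.326). Pparg, the nuclear receptor that drives that differentiation, had 285.2 scaled reads in KO and 731 reads in WT, and its ratio of 0.390 (0.328 to 0.462) was the highest of the 4. One of its 2 domains, at 0.411, was among the 10 highest of all domains. The intervals of Fabp4 and of Pparg do not overlap. They cover counting error of the reads by which the events were chosen, and these are the lowest and highest of the 4 genes. No difference between genes is read from this.

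Genes of the matrix and of secreted proteins ranged from 0.0472 in Tnc to 0.425 in Ccn1. Tnc, the matrix protein tenascin-C, had 9.7, 3.4 and 6.8 scaled reads in KO, against 250.5, 97 and 74 reads in WT, with an interval of 0.0247 to 0.0852. Ptx3, a secreted pentraxin, had 91.6 scaled reads in KO and 829.9 reads in WT, a ratio of 0.110 (0.0822 to 0.145). Col1a1, a chain of type I collagen, had 27.1, 64.8 and 72.7 scaled reads in KO, against 121.1, 200.5 and 174.4 reads in WT, a ratio of 0.332 (0.264 to 0.413). Has2, a hyaluronan synthase, had a ratio of 0.246 (0.146 to 0.395), and Fstl1, a secreted follistatin-like protein, 0.324 (0.288 to 0.363). Ccdc80, a matrix protein, had a ratio of 0.375 (0.322 to 0.435) and no other mark higher in WT beside it. Ccn1, a matricellular protein, had 370.3 scaled reads in KO and 871 reads in WT. Of the 8 genes of this group, 6 had H3K4me3 and 2 had H3K27ac higher in WT beside a domain.

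Snai2, a zinc-finger repressor of epithelial genes, had a short domain, with 3 events in 908 bp that held 61.3, 191.8 and 144.8 scaled reads in KO, against 259.6, 485 and 422.4 reads in WT. The ratio was 0.341 (0.294 to 0.392). Fosl1, a subunit of the AP-1 transcription factor, had 454.9 scaled reads in KO and 1195 reads in WT, a ratio of 0.381 (0.332 to 0.435). Id3, an inhibitor of helix-loop-helix transcription factors, had 0.306 (0.246 to 0.379), and Neat1, the long noncoding RNA of paraspeckles, 0.369 (0.296 to 0.458). At these 4 genes the H3K4me3 ratio lay between 0.293 in Snai2 and 0.438 in Neat1. In the HoxC cluster of homeobox genes, 7 events from 102757586 to 102760438 on chromosome 15 had 42.4 scaled reads in KO and 483 reads in WT, a ratio of 0.0878 (0.0563 to 0.131). Next to these, 1 H3K4me3 event had 14.1 scaled reads in KO and 804.8 in WT.

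Genes of signalling ranged from 0.119 to 0.306. Edn1, the vasoconstrictor endothelin, had the lowest, with 37.4 scaled reads in KO and 314.6 reads in WT (0.0732 to 0.183). Bambi, a decoy receptor of the transforming growth factor family, had a ratio of 0.159 (0.0904 to 0.261), and S1pr1, a receptor of sphingosine phosphate, 0.186 (0.148 to 0.232). Rgs2, a regulator of G protein signalling, had 0.203 (0.119 to 0.327), and Ghr, the growth hormone receptor, 0.265 (0.197 to 0.352). Fst, the activin-binding protein follistatin, had 240.9 scaled reads in KO and 903 reads in WT, a ratio of 0.267 (0.222 to 0.319). Gadd45g, a stress-response gene, had 0.286 (0.239 to 0.340). Outside these groups, Marcks, an actin-binding substrate of protein kinase C, had 131.1 scaled reads in KO and 949.3 reads in WT, a ratio of 0.138 (0.108 to 0.174).

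The lowest ratio of all domains lay in Dpysl3, which codes for a protein of cytoskeletal remodelling. Its 4 domains on chromosome 18, from 43488392 to 43594483, had 90 scaled reads in KO and 1856.9 reads in WT, a ratio of 0.0485 (0.0361 to 0.0636). Event by event, KO had 0 to 13.6 scaled reads, against 50 to 122 reads in WT, without overlap. The last domain had 13.6 scaled reads in KO and 393.6 reads in WT, and 3 of its 6 events had 0 KO reads. At those 3 events the upper limit of the ratio's interval lay between 0.0791 and 0.0975. Dpysl3 also had H3K27ac with 120.1 scaled reads in KO and 2086.2 in WT, a ratio of 0.0576 (0.0472 to 0.0699). Across the 298 domains, 12 of 1335 members, in 9 domains, had 0 KO reads, with 33 to 139.9 reads in WT. Besides Dpysl3 and Acta2, the named genes with such a member were Fabp4, Alpl, Dysf and Edn1, with 1 each. An unnamed domain on chromosome 4 had 0 KO reads at 136327021 and 136327501, and 10.2 scaled reads in KO against 247 reads in WT in sum. Single events outside the domains also reached a ratio of 0. The share over the whole list is not given here, so nothing is read from this count.

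The ends of the domains were then examined for marks that the rule had not used. Within 5 kb, 83 of 298 domains (27.9%, 22.8 to 33.3) had an H3K4me3 event higher in WT, and 0 had one higher in KO (exact interval 0 to 1.23%). The H3K4me3 lists held 738 events with more reads in KO and 5542 with more in WT, and which events count as higher depends on the authors' scaling of the KO reads, by 0.461 for H3K4me3. In the same list, 17.2% of regions of 2 events (12.7 to 22.6) and 9.54% of single events (7.56 to 11.8) had such an H3K4me3 event. Longer regions search a longer stretch, and no test of these differences was made. In the 153 domains formed in the same way from the H3K36me3 list of KO, 14.4% had H3K4me3 higher in KO and 1.31% had it higher in WT. That list came from another program (GPS) than the WT list (GEM).

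H3K27ac higher in WT lay within 5 kb of 32 domains (10.7%, 7.46 to 14.8), and H3K27ac higher in KO within 5 kb of 7 (2.35%, 0.950 to 4.78). The H3K27ac lists, chromosomes 9 and X included, held 8323 events with more reads in KO and 1765 with more in WT. The shares are read beside these unequal numbers. H3K27ac higher in WT was also near 8.82% of the regions of 2 events (5.55 to 13.2) and 4.90% of single events (3.49 to 6.66), and H3K27ac higher in KO near 1.26% and 3.61% of them. The interval for the domains overlaps that for regions of 2 events. Of the 153 domains from the KO list, 46.4% (38.3 to 54.6) had H3K27ac higher in KO and 0 had it higher in WT. No test of these differences was made. No domain had an H3K36me3 event higher in KO within 5 kb. Both H3K4me3 and H3K27ac higher in WT were found at 18 domains, H3K4me3 alone at 65, H3K27ac alone at 14 and neither at 201. In Glis3, none of the 10 domains had either mark higher in WT within 5 kb.

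These sets overlap in their H3K36me3 ratios but have unlike medians. The median was 0.107 (quartiles 0.0661 and 0.147) in the 18 domains with both marks, 0.2997 (0.211 and 0.333) in the 65 with H3K4me3 alone, 0.163 (0.122 and 0.303) in the 14 with H3K27ac alone and 0.264 (0.197 and 0.323) in the 201 with neither. The highest of the 18 domains with both marks reached 0.285. Acta2, Myl9, Tnc, Ptx3, Fabp4, Edn1, Bambi, Rgs2, the HoxC cluster and 2 domains of Dpysl3 were among the 18. The sets were formed by other marks of the same cells, the 2 Dpysl3 domains belong to 1 gene, and no test was made.

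**Figure D3:**
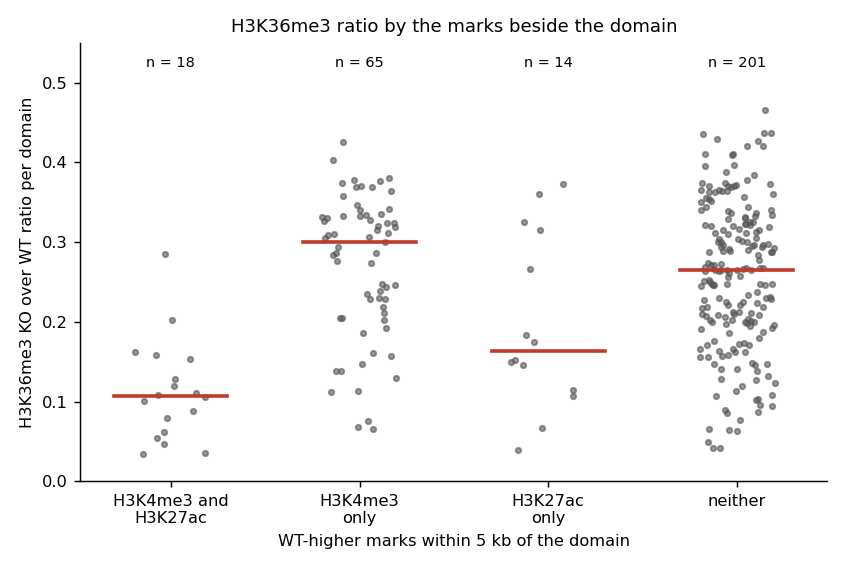
KO over WT ratio of H3K36me3 per domain (vertical axis), in 4 sets by the marks higher in WT within 5 kb; each point is 1 domain and each bar the median of its set. The medians are 0.107 with both marks, 0.2997 with H3K4me3 alone, 0.163 with H3K27ac alone and 0.264 with neither, and all 4 sets overlap.

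Around the 83 domains, 273 H3K4me3 events had 55964.9 scaled reads in KO and 212437 reads in WT, a ratio of 0.263 (0.262 to 0.265). The other 3556 H3K4me3 events higher in WT off chromosomes 9 and X had a ratio of 0.332 (0.331 to 0.333). Across the 83 domains, the ratios of H3K36me3 and of the H3K4me3 beside it went together, with Spearman's rho of 0.721 and Pearson's r of 0.812 on the log2 scale. For H3K27ac, across 32 domains, rho was 0.349 and r was 0.315. These are descriptions across places that share the same cells and scaling, and several domains of 1 gene count more than once. The 70 H3K27ac events near domains had 8723.1 scaled reads in KO and 31403.9 in WT, which gave 0.278 (0.271 to 0.285), against 0.261 (0.259 to 0.263) for the other 1490.

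In Tnc the ratio was 0.0472 (0.0247 to 0.0852) for H3K36me3, 0.0432 (0.0390 to 0.0477) for H3K4me3 and 0.305 (0.275 to 0.337) for H3K27ac. In Acta2 it was 0.0615 (0.0382 to 0.0938) for H3K36me3, 0.0824 (0.0744 to 0.0910) for H3K4me3 and 0.362 (0.328 to 0.398) for H3K27ac. In both genes the intervals of H3K36me3 and H3K4me3 overlap. In Fabp4 the ratio was 0.0544 (0.0287 to 0.0940) for H3K36me3, 0.0213 (0.0145 to 0.0301) for H3K4me3 and 0.326 (0.267 to 0.397) for H3K27ac, and the first 2 intervals overlap only at their edges. Only in Dpysl3, of the named genes with all 3 marks, was the H3K27ac ratio (0.0576) under 0.1. Each mark had its own scaling, so a difference between marks at 1 gene depends on it, whereas the order of genes within a mark does not.

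**Figure D4:**
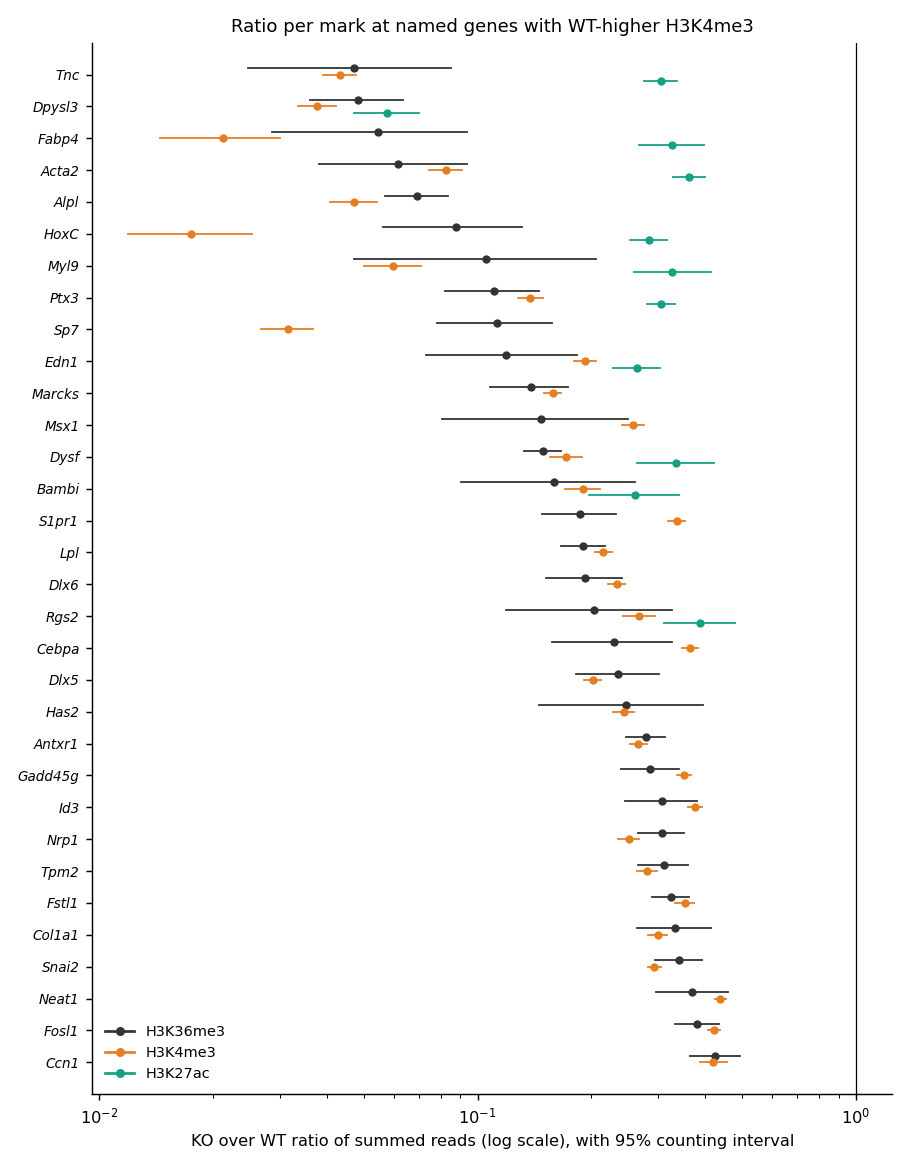
KO over WT ratio of summed reads on a log axis for the named genes with H3K4me3 higher in WT beside a domain, from the lowest H3K36me3 ratio (Tnc, 0.0472) at the top to the highest (Ccn1, 0.425) at the bottom. Black points are H3K36me3, orange H3K4me3 and green H3K27ac, with bars for the 95% counting interval. For the last 2 marks, only events higher in WT within 5 kb are drawn. The vertical line marks equal reads, and all points lie left of it by this choice of events. H3K27ac higher in KO at Antxr1 and Dysf is not drawn.

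The strongest H3K4me3 event lay at an end of the domain (the outer 25% of the span or the 5 kb beyond it) in 80 of 83 domains, 43 at the lower and 37 at the higher coordinate. Ends so defined make up a mean of 88.4% of the searched length, so the definition alone covers most of the search, and nothing is read from this count. H3K4me3 lay at 1 end only in 74 of 83 domains (89.2%, 80.4 to 94.9), at both ends in 8 and in the middle alone in 1. These domains had a median of 3 H3K4me3 events. The definition of an end and the few events bear on this share too, and nothing is read from it. In 77 of the 80, the strongest event was outside the domain, at a median distance of 1744 bp (quartiles 1188 and 2887). The part of the search outside the domain made up 76.8% of its length on average.

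Counted from the marked end of the 74 domains, 195 of 233 H3K4me3 events came before the first H3K36me3 event, 35 lay up to 2 kb inside and 3 lay further in. These domains were chosen for H3K4me3 at 1 end and turned to that end, which largely fixes where its events lie, so nothing is read from these counts. Of 38 H3K27ac events higher in WT, 28 came before, 4 lay up to 2 kb inside and 6 further in. For the H3K36me3 itself the span was split into 3 equal stretches. The stretch nearest the marked end had a median of 13.6 scaled reads per event in KO and 68.4 reads in WT, the middle one 18.7 in KO and 91.5 in WT, and the far one 23.8 in KO and 98.8 in WT. In both genotypes the median was higher with distance from the marked end. The stretches held 137, 71 and 135 events from 74, 54 and 74 domains, so they do not all rest on the same domains. Whether reads rise within single domains was not tested. The KO over WT ratio was 0.229 (0.217 to 0.242), 0.228 (0.213 to 0.243) and 0.246 (0.235 to 0.258) in the same order, and the intervals of all 3 overlap.

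**Figure D5:**
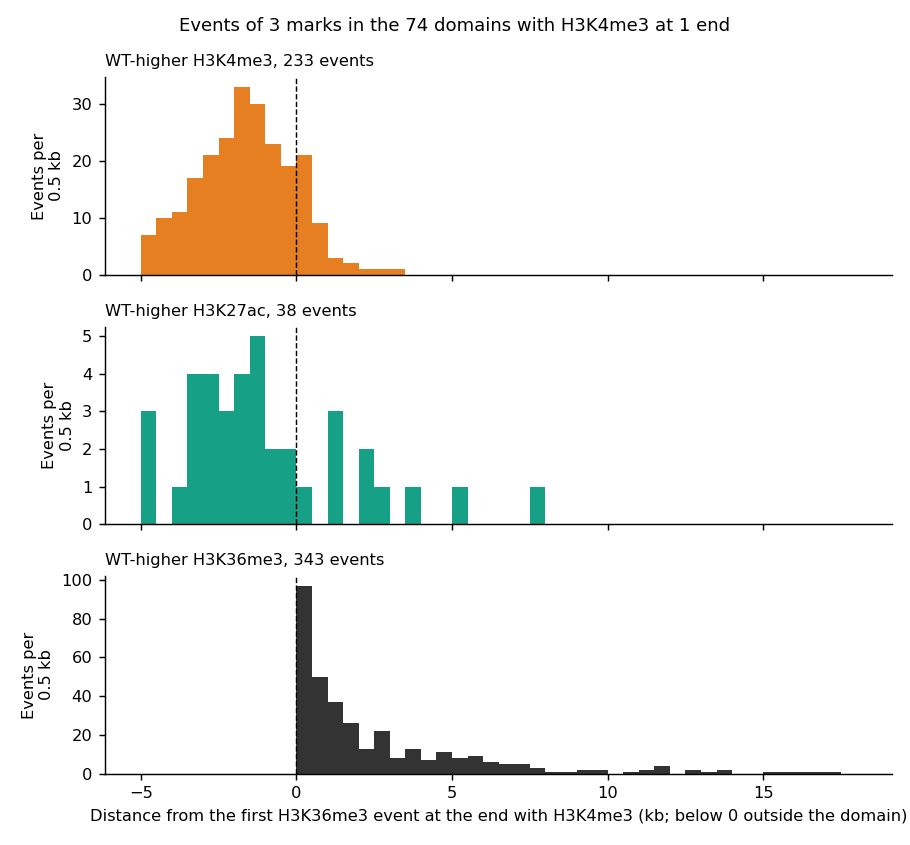
Number of events per 0.5 kb against the distance in kb from the first H3K36me3 event at the end with H3K4me3, over the 74 domains with H3K4me3 at 1 end; distances below 0 lie outside the domain, and other marks were searched to 5 kb outside. Of the H3K4me3 events, 195 of 233 lie left of 0, which the choice and turning of the domains by H3K4me3 largely fixes, and H3K36me3 events start at 0 by construction.

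The 7 domains with H3K27ac higher in KO within 5 kb go against the other mark beside them. Antxr1 held 3 of them, with 4 H3K27ac events that had 1878.6 KO reads against 503.2 scaled WT reads, a ratio of 3.73 (3.40 to 4.10). One of these events, at 87181134 on chromosome 6, lay inside a domain, with 528 KO reads against 133.4 scaled WT reads, where H3K36me3 had 120.4 scaled reads in KO and 451 reads in WT. Dysf held 1, also inside a domain, with 303.6 KO reads against 146.6 scaled WT reads. The other 3 lay on chromosomes 2, 4 and 5 and were given no gene name. At 57777111 and 57778237 on chromosome 4, H3K27ac had 371.9 and 386.7 reads in KO, against 120.9 and 117.3 scaled reads in WT.

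Chromosome 4 held 40 domains with 188 members, among 348 events of the list on that chromosome. Chromosome 6 held 33 domains with 167 members, among 251 events. Chromosomes 12 and 14 held 1 domain each, and they had 24 and 43 events of the list. The list itself holds unlike numbers of events per chromosome, and nothing is read from the counts of domains. The median ratio per chromosome with 5 or more domains ran from 0.156 on chromosome 18 to 0.334 on chromosome 16. The KO over WT ratio of H3K27ac background reads, relative to the median chromosome, ran from 0.820 to 1.27 over the chromosomes with domains, and its part in these results was not tested. The 85 domains on chromosomes where it was under 0.9 (4, 10 and 19) had a median H3K36me3 ratio of 0.263, and the other 213 had 0.261.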

How the data were processed

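ChIP-seq lists of H3K36me3, H3K4me3 and H3K27ac were compared between Dicer KO and Dicer WT mesenchymal stromal cells, 1 value per genotype. Positions are in mm9 and TopHat 1.4 is named without a role, per the submitters' processing notes. The authors' lists came from GEM (H3K36me3 of WT, both of H3K4me3) or GPS (the others), per the file headers and names, which place point events and share reads between neighbours. Replicates were pooled for H3K27ac, per the file names, and this is not stated for the other marks. For every event the authors deposited an estimated count for the higher genotype and a scaled signal for the other, and the deposited fold is their ratio. A deposited expected signal per event is called background reads here, with no definition in the headers. The deposited shape scores of the software were not used here. Deposited −log10 q values start at 2 and were used only as a filter.

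From these, events were joined within 5 kb, and reads summed per domain. KO over WT ratios have exact conditional binomial (Clopper-Pearson) 95% intervals of the unscaled reads. The scaling factor of KO was recovered as the step that made 92.4% of values whole for H3K36me3, within 0.06 of the file's units, and 54.2% for H3K4me3, where the factor is less certain. Reads are not independent molecules. Total depth is unknown. Marks within 5 kb of a domain counted as beside it. Joining and ratios were tested on simulated data. Software was Python 3.11.15 with SciPy 1.17.1, pandas 2.3.3, NumPy 2.4.6 and, for figures, matplotlib 3.10.9.

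Members, lists and tests were chosen with earlier results of these data known. No mm9 annotation was used here, so lists of pathway genes and cell type markers were not counted. For names, 71 candidates recalled for the places of domains were set against the gene table of another build (GRCm38.p6), by chromosome, gene length and the offset of positions. Of these, 40 were kept (39 genes and the HoxC cluster) and 31 left out. Chromosome and length agree for 39 of 39 genes, but the same table was used in choosing them, so this is no independent check. A domain can also reach into a neighbouring gene. Fixed rules picked 57 domains, of which 29 have a name, and most of the rest are not described in the text. The other named domains were chosen after their values were seen. The rules took the 10 longest, the 10 with most events, lowest ratio, highest ratio, most WT reads and most WT H3K4me3 reads, the 5 with most WT H3K27ac reads, and all with a mark higher in KO.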

Additional observations from a re-analysis of the deposited data

How the results depend on the processing

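Of 68 alternative values for 9 results, 48 stayed within the limits set for them, 20 moved and 0 reversed. A reversal was not possible, since counts, spans and shares have no direction and the ratios come from events chosen as higher in WT. Nothing is read from its absence. The limits were 1.5 times for counts and the 95% interval of the reported value for the rest, which is wide for small shares: the share of domains beside a mark higher in KO ran from 0.901% to 4.03% over the alternatives, against 2.35% as reported. With at least 5 events per domain there were 94 domains and 667 members, with a median span of 6525 bp, a summed ratio of 0.231, a median domain ratio of 0.220 and H3K4me3 at 1 end in 96%. Restricting H3K36me3 events to a −log10 q of 5 or more left 111 domains with 483 members, a summed ratio of 0.234, a median of 0.224, 0.901% of domains beside a mark higher in KO and H3K4me3 at 1 end in 80%. Merging within 2 kb gave a median span of 1573 bp and within 10 kb 5549.5 bp. Keeping all chromosomes gave a summed ratio of 0.255. With 1 read added to both genotypes the summed ratio was 0.265 and the median 0.281. The share of domains with H3K4me3 higher in WT was 14.4% within 1 kb and 35.2% within 10 kb, and that with H3K27ac was 5.03% within 1 kb. Stricter rules lower the counts by construction. Scaling to own background was not run, since the lists do not give both genotypes' background for these events. No paired analysis was possible because each list holds a single value per genotype, which also means that no replicate can be omitted. Reads per event limit the ratios, with a median of 18.7 scaled reads in KO.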
